A study of Homo sapiens with 8 samples.

Results

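The genes described here conjugate quercetin-like flavonoids or carry the conjugates out of the cell. They were taken by symbol, updated through the Entrez identifier, from a list of 9: the sulfotransferases SULT1A1, SULT2A1 and SULT1E1, the glucuronosyltransferase UGT2B7, the UDP-glucose dehydrogenase UGDH, and the exporters ABCC1, ABCC2, ABCC3 and ABCG2. Of the 9, 8 had a probe set in the annotation used here, with 17 probe sets in all, each annotated to 1 gene. UGT2B7 had none listed and is not analysed here. Of the 19775 genes with a probe set, 13298 had a mean log2 level above 7.43, the median over all probe sets, and were tested, and 7 of the 8 were among them. SULT1E1 was dim and is described without a test.

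The cells were HepG2, a human hepatocellular carcinoma line, so every array comes from 1 tumour line. All were serum starved before treatment and stayed in serum-free medium. The control group was serum-free medium alone and the treated group was the same medium with 3 µM quercetin, each sampled after 2, 4, 12 and 24 h with 1 Affymetrix array per treatment and time, 8 arrays in all. No treatment and time was repeated. The error of a quercetin or a time difference therefore comes from how the quercetin difference of a gene varies over the 4 times. Limma, the method of the tests below, draws this error towards that of genes of similar level. Such an error does not measure how cultures treated alike differ.

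Quercetin, a plant flavonol with several hydroxyl groups, is a classic substrate of phase II metabolism. In liver, sulfotransferases transfer sulfate from the donor PAPS, and glucuronosyltransferases transfer glucuronic acid from UDP-glucuronate, which UGDH makes from UDP-glucose. The charged products leave the hepatocyte through ATP-binding cassette pumps, ABCC2 and ABCG2 mainly towards bile and ABCC1 and ABCC3 mainly towards blood. Several of these genes are known targets of the xenobiotic receptors, of the aryl hydrocarbon receptor (AhR) or of the oxidant-responsive factor NRF2.

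Of the hepatocyte markers, 16 of 16 with a probe set lay above the median, among them ALB and APOA1, and their mean level was between 13.89 and 14.20 on all arrays. Markers of other cells were above the median for 4 of 8 leukocyte, 5 of 8 fibroblast and 2 of 6 endothelial genes. LYZ stood highest of the leukocyte markers, at 13.99 on average, while PTPRC was at 7.52. The arrays were uneven in quality signals. The 18S rRNA signal was 3.44 higher in the quercetin than in the control array at 2 h, with differences between -0.66 and 0.10 at the other times, and the hybridisation spike-in signal was 0.85 higher at 2 h. The gap between the 3' and 5' probes of ACTB, a sign of RNA quality, was 0.52 smaller with quercetin at 12 h and differed by 0.24 or less at the other times. These signals differed between times too. In control cells the 18S signal ran from 7.35 (12 h) to 11.52 (4 h), and with quercetin from 7.29 (12 h) to 12.01 (2 h). From 2 to 24 h the ACTB gap widened, from 0.88 to 1.36 in control and from 1.11 to 1.39 with quercetin. The same gap for GAPDH narrowed, from 0.47 to 0.41 in control and from 0.56 to 0.42 with quercetin. The part of these signals in the differences below, by treatment or by time, was not tested.

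UGDH had the largest quercetin difference of the 7 tested genes. Its log2 level in control cells was 12.76, 12.45, 12.69 and 12.83 at 2, 4, 12 and 24 h, and in quercetin-treated cells 12.85, 12.82, 13.08 and 13.03. The quercetin array was the higher one of the pair at every time, although the ranges of the 2 groups met, since quercetin at 4 h lay just under control at 24 h. The difference was 0.09, 0.36, 0.39 and 0.20, with a mean over the 4 pairs of 0.26 ± 0.08 (limma's moderated SE), or 1.20-fold. A positive difference at all 4 times was found for 4.54% of the genes tested, and by its mean UGDH ranked 360 among the 13298. It did not pass limma's test (adjusted p = 0.84), and an exact sign-flip test over the 4 pairs gave a two-sided p of 0.125, the smallest that 4 pairs allow.

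No gene of the group was called for quercetin against control by limma, where the share called among all genes was 0%. At an unadjusted threshold of 0.05, 1 of the 7 passed (UGDH), as did 785 of all 13298. The adjusted p ranged from 0.84 to 0.99 over the 7. Means and 95% intervals were 0.11 (-0.07 to 0.29) for SULT1A1, -0.09 (-0.28 to 0.11) for SULT2A1, -0.01 (-0.24 to 0.21) for ABCC1, 0.15 (-0.10 to 0.41) for ABCC2, 0.08 (-0.17 to 0.33) for ABCC3 and -0.15 (-0.43 to 0.13) for ABCG2. Single pairs decided several of these means. SULT1A1 was at 0.012 and ABCC3 at 0.021 without the 12 h pair, ABCC2 at 0.026 without the 4 h pair, SULT2A1 at -0.023 without the 24 h pair and ABCG2 at -0.033 without the 2 h pair, while ABCC1 turned to 0.043 without the 2 h pair and to 0.0054 without the 4 h pair. UGDH stayed between 0.22 and 0.32. Limma's intervals reach at most 0.43 in size, so a mean difference of 1.5-fold lies outside each of them, while smaller ones lie within. Their width rests on an error moderated over all genes. Intervals from the 4 pairs of each gene alone were not computed and may reach further.

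**Figure D1:**
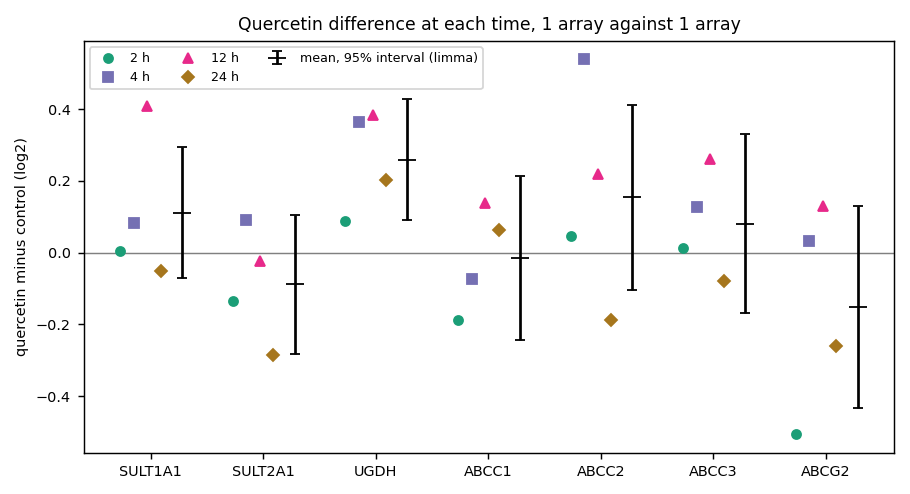
Quercetin minus control on the log2 scale (y axis) for the 7 tested genes (x axis). Coloured symbols are the 4 times, each 1 array against 1 array, and black bars are the limma mean with its 95% interval. UGDH lies above 0 at every time, with a mean of 0.26, and no other gene does.

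The number of genes that were higher with quercetin varied with time. Of the 7 tested genes, the quercetin array was the higher one for 4 at 2 h, for 6 at both 4 and 12 h, and for 2 at 24 h. The shares of all genes that were higher at these times were 41.9%, 45.7%, 59.3% and 33.8%, so the low count at 24 h goes along with a low share over all genes. The median difference of the 7 was 0.005, 0.09, 0.22 and -0.08, beside -0.06, -0.02, 0.05 and -0.10 over all genes. None of the 7 reached a difference of 1 in size at any time. Among all genes, 0.474%, 0.0677%, 0.346% and 0.384% did so at 2, 4, 12 and 24 h. The largest were those of ABCC2 at 4 h (0.54) and ABCG2 at 2 h (-0.51).

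SULT1A1, the main phenol sulfotransferase of liver, was high on every array. Control cells had 12.76, 12.48, 12.45 and 12.84 at the 4 times, and quercetin-treated cells 12.76, 12.56, 12.86 and 12.79. The 12 h pair, with a difference of 0.41, was the only wide one, and there the control array was the lowest of the 8 and the quercetin array the highest. A second probe set gave 0.45 at 12 h and at most 0.09 in size at the other times. Both carry the suffix x_at, which marks probes that can match other transcripts, and SULT1A1 has near-identical neighbours in its family, so their signal cannot be given to SULT1A1 alone. The third, gene-specific probe set was close to the median of all probe sets (mean 7.71), and its differences were 0.31, -0.08, 0.16 and -0.40. The ACTB 3' minus 5' difference also departed most at 12 h (-0.52).

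SULT2A1, the hydroxysteroid sulfotransferase, varied over the 4 times in the same way in both arms. Its control values were 12.22, 11.60, 11.90 and 12.46 and its quercetin values 12.08, 11.69, 11.87 and 12.17. In both arms the level was lowest at 4 h and highest at 24 h, and the quercetin difference lay between -0.28 (24 h) and 0.09 (4 h). The second probe set had the same low point, and at 24 h it was 11.60 in control and 11.12 with quercetin, a difference of -0.48. SULT1E1, the oestrogen sulfotransferase, stayed dim, at 6.07 to 6.39 on the probe set used. Its other probe set lay between 5.47 and 5.71 on 7 arrays and at 6.40 in the control array at 24 h.

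**Figure D2:**
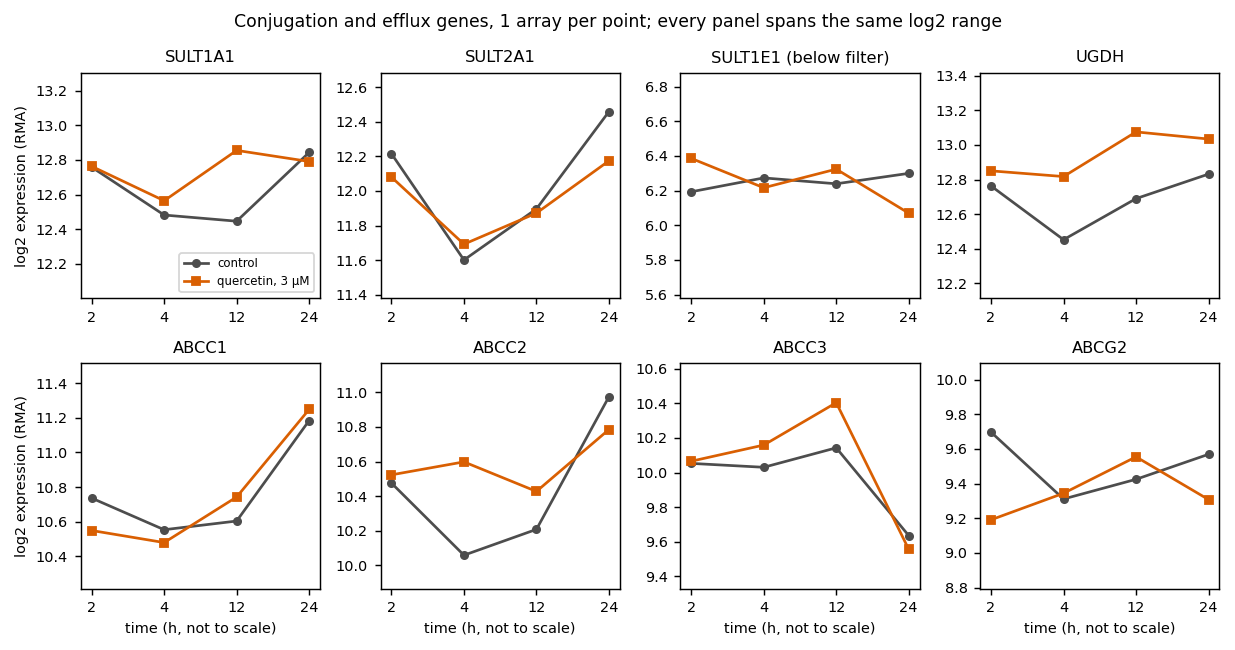
Log2 expression (y axis) at each time (x axis, evenly spaced) for the 8 genes with a probe set, in control (grey) and quercetin-treated cells (orange), with 1 array per point. ABCC1 ends highest at 24 h in both arms (11.18 and 11.25), ABCC3 ends lowest (9.64 and 9.56), and SULT2A1 dips at 4 h (11.60 and 11.69).

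ABCC2, the canalicular exporter also called MRP2, stood at 10.48, 10.06, 10.21 and 10.97 in control and at 10.52, 10.60, 10.43 and 10.79 with quercetin. The pair was apart at 4 h, where the control array was the lowest of the 8, and the sign had turned by 24 h (-0.19). ABCG2, the breast cancer resistance protein, stood at 9.70, 9.31, 9.42 and 9.57 in control and at 9.19, 9.34, 9.55 and 9.31 with quercetin. Its widest difference was in the 2 h pair, the one whose 18S signal differed by 3.44. For ABCC1 and ABCC3 the quercetin differences depended on the probe set. At 12 h the second probe set of ABCC1 was 0.72 higher with quercetin, against 0.14 for the one used. The 5 probe sets of ABCC3 had mean differences from -0.02 to 0.25.

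The late (12 and 24 h) quercetin difference did not depart from the early one (2 and 4 h) for any of the 7 genes by limma, with an adjusted p of at least 0.99 for each and 0 of 7 at an unadjusted threshold of 0.05, where 574 of all genes passed. Of all genes, 0.368% were called. ABCC2 was 0.28 ± 0.26 (SE) lower late than early, and ABCC1 0.23 ± 0.25 higher. Without the 4 h pair ABCC2 was at -0.033 and without the 24 h pair at -0.074, while ABCC1 lay between 0.18 and 0.29 over the omitted pairs.

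From 2 to 24 h in serum-free medium ABCC1 rose, and ABCC3 had a negative difference that missed the threshold on the probe set used. ABCC1, the broad-range exporter MRP1, rose from 10.74 and 10.55 (control and quercetin) at 2 h to 11.18 and 11.25 at 24 h, and both 24 h arrays lay above the other 6. The difference of 24 h against 2 h, both arms together, was 0.57 ± 0.16 (SE), or 1.49-fold, and was called by limma (adjusted p = 0.011). It was 0.45 in control and 0.70 with quercetin. ABCC1 was the only one of the 7 to be called, while 21.3% of all genes were (17.3% higher and 3.98% lower), so 1 of 7 lies near that share. The second probe set of ABCC1 gave 0.37 and was not called when each probe set was tested on its own (adjusted p = 0.27), a fit in which 16.8% of probe sets were called.

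ABCC3, the basolateral exporter MRP3, lay lower at 24 h. On the probe set used it was at 10.05, 10.03, 10.14 and 9.64 in control and at 10.07, 10.16, 10.40 and 9.56 with quercetin. Both 24 h arrays were below the other 6, and the 12 h quercetin array was the highest. The difference of 24 h against 2 h was -0.46 ± 0.17 (SE), which missed the threshold (limma adjusted p = 0.057). The other probe sets differed widely. The gene-specific one, which is not the probe set used, changed by -1.06. It went from 9.92 and 9.88 (control and quercetin) at 2 h to 8.92 and 8.75 at 24 h. Another, with an x_at suffix, fell by 1.16 on the log2 scale. Both were called in the fit of single probe sets (adjusted p = 0.0015 and 0.0014). In them the level was already lower at 4 and 12 h, unlike on the probe set used. When genes were represented by gene-specific probe sets, ABCC3 was called (limma adjusted p = 0.00035). A further probe set gave -0.51 (adjusted p = 0.069), and the last, also with an x_at suffix, gave 0.10 (adjusted p = 0.77). Thus 4 of the 5 had a negative difference.

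**Figure D3:**
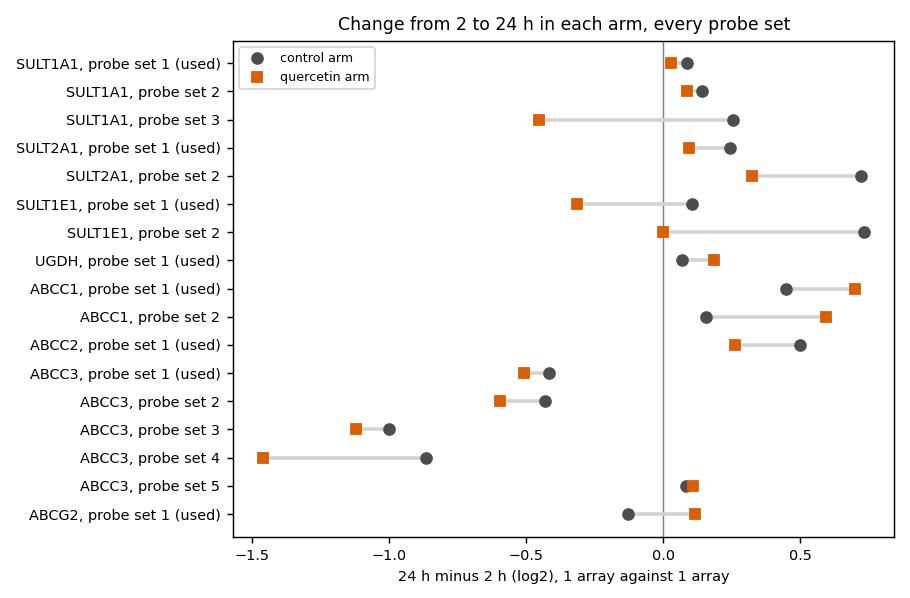
Difference of 24 h minus 2 h on the log2 scale (x axis) for each of the 17 probe sets (y axis, ordered by level within a gene), in the control arm (grey) and the quercetin arm (orange), 1 array against 1 array. The probe sets of ABCC1 lie to the right in both arms, and 4 of the 5 of ABCC3 lie to the left, down to -1.46.

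Over the 4 times together, limma's F-test called 4 of the 7 genes, SULT2A1 (adjusted p = 0.0020), ABCC1 (0.0051), ABCC3 (0.017) and ABCC2 (0.040), where 38.1% of all genes were called. UGDH, SULT1A1 and ABCG2 were not (0.16, 0.21 and 0.89). Against 2 h, 0 of the 7 were called at 4 h (0.534% of all genes) and 0 at 12 h (3.00%), with 1 and 0 at an unadjusted threshold of 0.05. SULT2A1 was the one at 4 h, at -0.50 ± 0.13 (SE, adjusted p = 0.075). At 24 h against 2 h, ABCC2 was 0.38 ± 0.18 higher (adjusted p = 0.13). The F-test and the comparisons of 4 and 12 h with 2 h are on the deposited scale only. Their dependence on scale was not tested.

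The direction of the time differences was sensitive to the scale of the arrays. Within an array the values had an SD of 1.95 and 1.90 at 24 h, above the 1.74 to 1.86 of the other 6. The median of all genes for 24 h against 2 h was 0.09, and -0.03 after quantile normalization and -0.02 after cyclic loess. The share of called genes that were higher was 81.3%, and 57.2% and 60.2% after these. ABCC1 was then 0.28 and 0.34 and lost its call (adjusted p = 0.14 and 0.068), and ABCC3 was -0.66 and -0.68 and gained one (0.0049 and 0.0038). Against 4 h instead of 2 h, an alternative chosen after the data were seen, 5 of the 7 were called, where 44.4% of all genes were. The 4 h arrays had the lowest SD of all, 1.74 in control and in quercetin. This comparison was made on the deposited scale only, so its dependence on scale was not tested. SULT2A1 was 0.67 higher (adjusted p = 0.00039), ABCC1 0.70 (0.00059), ABCC2 0.55 (0.012) and UGDH 0.30 (0.039), and ABCC3 was at -0.50 (0.017). SULT1A1 (0.29, adjusted p = 0.063) and ABCG2 (0.11, 0.64) were not called.

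Promoter windows were listed by RefSeq (GRCh38.p14) for 6 of the 9 genes, and the 250 bases before the annotated start were searched on both strands for 4 motifs: the antioxidant response element core TGACNNNGC, the AhR core GCGTG, the HNF1 core GTTAAT and the nuclear receptor hexamer AGGTCA. Of the 35116 windows of this length in the table, 10.9%, 32.2%, 6.23% and 12.1% held them. The windows of UGDH and ABCC2 are shown because these genes had the largest mean quercetin difference and the largest single one. Neither held any of the 4 motifs, which says only that these letters are not in this stretch. ABCG2 had 5 listed starts, 3 of them with the AhR core, and the one shown also held the nuclear receptor hexamer. The other windows with the AhR core, chr4:88158860-88159109 and chr4:88158910-88159159, overlap and hold the same 2 matches. Of the windows not shown, that of SULT1E1 held 1 match of the HNF1 core, and those of UGT2B7 and SULT2A1 held none of the motifs. Capitals mark the matches, on either strand and without overlap, and every window is on the gene's own strand, 5' to 3'. UGDH is at chr4:39527440-39527689 (minus strand), ABCC2 at chr10:99782390-99782639 (plus) and the ABCG2 window at chr4:88158640-88158889 (minus).
UGDH: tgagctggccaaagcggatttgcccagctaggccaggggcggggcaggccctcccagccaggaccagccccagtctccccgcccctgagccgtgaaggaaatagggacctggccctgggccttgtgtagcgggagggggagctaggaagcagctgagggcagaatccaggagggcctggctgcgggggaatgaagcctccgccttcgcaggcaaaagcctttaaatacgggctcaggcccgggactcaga
ABCC2: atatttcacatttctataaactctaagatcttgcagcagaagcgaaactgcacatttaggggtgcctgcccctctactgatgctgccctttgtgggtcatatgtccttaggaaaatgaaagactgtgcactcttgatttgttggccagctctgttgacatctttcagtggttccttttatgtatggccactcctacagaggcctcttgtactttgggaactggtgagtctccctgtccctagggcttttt
ABCG2: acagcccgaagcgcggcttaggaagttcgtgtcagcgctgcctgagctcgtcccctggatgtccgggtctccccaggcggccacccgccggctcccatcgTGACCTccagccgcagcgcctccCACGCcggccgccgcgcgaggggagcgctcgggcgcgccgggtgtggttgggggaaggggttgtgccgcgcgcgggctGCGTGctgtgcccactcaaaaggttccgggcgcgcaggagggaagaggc

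Other genes of the same routes were counted from lists. In the quercetin comparison 0 members of any list were called, and the largest mean differences with 1 sign at all 4 times were small. BPNT1, which clears the by-product of sulfation, was at -0.33 ± 0.13 (SE), the glucuronosyltransferase UGT2A3 at -0.33 ± 0.12, the sterol exporter ABCG5 at -0.40 ± 0.13, the oestrogen receptor ESR1 at 0.28 ± 0.13, the glucocorticoid receptor NR3C1 at -0.23 ± 0.11, the organic anion transporter SLCO4C1 at -0.57 ± 0.15 and the methyltransferase HNMT at -0.13 ± 0.08. Limma's adjusted p was 0.84 for all of these but HNMT, where it was 0.87. All 7 tested members of the other glucuronidation genes had a negative mean, with a median of -0.12 beside -0.03 over all genes, and none was called. The share of all genes with a negative mean was not counted. After quantile normalization and cyclic loess the list median was -0.06 and -0.07, beside 0.006 over all genes in both.

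Each list held at least 1 gene called from 2 to 24 h, where 17.3% of all genes were called higher and 3.98% lower. After median centring these shares were 19.9% and 2.80%, after quantile normalization 8.86% and 6.64%, and after cyclic loess 10.9% and 7.20%. PAPSS1, which makes the sulfate donor PAPS, was the 1 of 13 other sulfation genes called. Its level went from 12.39 and 12.07 (control and quercetin) to 12.99 and 12.87, a rise of 0.70 ± 0.14 (SE, limma adjusted p = 0.00092), and it was called in all 13 alternatives. SLC35D2, a nucleotide sugar transporter, was the 1 of 7 other glucuronidation genes, at 0.56, and was called in 12 of 13. After quantile normalization and cyclic loess SLC35D1, a related transporter, was called lower too (-0.52 and -0.50).

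Of 14 methylation genes 2 rose and 2 fell. MAT2B (0.61) and adenosine kinase ADK (0.48) rose, and guanidinoacetate methyltransferase GAMT (-0.61) and the S-adenosylmethionine synthase MAT2A (-0.59) fell. The counts were 4 higher and 1 lower after median centring, where TPMT and HNMT gained a call, and 1 higher and 3 lower after quantile normalization and cyclic loess, where MAT1A gained one (-0.54 and -0.52). MAT2B was called in 11 of 12 alternatives and was -0.03 as a mean of its probe sets, GAMT was called in 11 of 13, ADK in 9 of 13 and MAT2A in 6 of 13. MAT2A was also the only list gene whose quercetin difference was called as departing late from early (-0.93 ± 0.24, adjusted p = 0.040). It stood at 11.05, 10.77, 10.62 and 10.92 in control and at 11.62, 11.49, 10.39 and 10.58 with quercetin, higher early and lower late. That call was kept in 4 of 14 alternatives and lost whenever any 1 time pair was left out, with values from -1.02 to -0.56 and adjusted p from 0.028 to above 0.99.

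Of 12 other efflux transporters 2 rose and 1 fell. The phospholipid exporter ABCB4 went from 8.002 and 7.815 to 8.97 and 9.31, a rise of 1.23 ± 0.20 (SE, adjusted p = 0.00016), and was called in all 11 alternatives that held it. The drug exporter ABCB1, or P-glycoprotein, rose by 0.70 (adjusted p = 0.014) and lost its call as a mean of its probe sets (0.34). ABCC11 fell by 0.69 on the log2 scale, a call kept in 7 of 11 alternatives and lost under the 3 scalings. After quantile normalization and cyclic loess 2 were higher and 2 lower, the latter being ABCC10 (-0.66 in both) and SLC47A1 (-0.40 and -0.38).

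SLCO4A1 was the 1 of 9 uptake transporters called, at 0.62, and kept its call in 11 of 13 alternatives. After quantile normalization 0 were higher and 2 lower, and after cyclic loess 1 and 2. The 2 were SLCO2B1 (-0.70 and -0.72) and SLC22A7 (-0.63 in both). Among 19 regulators 5 rose and 1 fell, against 6 and 1 after median centring and 3 and 3 after quantile normalization and cyclic loess. There FOXA3 (0.49 and 0.54) and CEBPB (0.27 and 0.23) lost their calls, and NFE2L2 (-0.36 and -0.38), the gene of NRF2, and NR3C1 (-0.59 and -0.57) were called lower. NR0B2, a corepressor of bile acid synthesis, rose by 1.32, the coactivator PPARGC1A by 1.30 and AHR, the aryl hydrocarbon receptor itself, by 1.12. CEBPA, a transcription factor of differentiated hepatocytes, went from 12.13 and 12.03 to 10.58 and 10.67, a change of -1.45 ± 0.15 (adjusted p = 1.38e-06). NR0B2, PPARGC1A, AHR and CEBPA kept their direction and call in all 13 alternatives. FOXA3, CEBPB and the genes called only after a scaling were chosen after their values were seen. The medians of the lists at 24 h against 2 h were -0.04, 0.24, 0.002, 0.08, -0.13 and 0.18 for sulfation, glucuronidation, methylation, efflux, uptake and regulators, and 0.13 for the 7 conjugation and efflux genes, beside 0.09 over all genes.

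**Figure D4:**
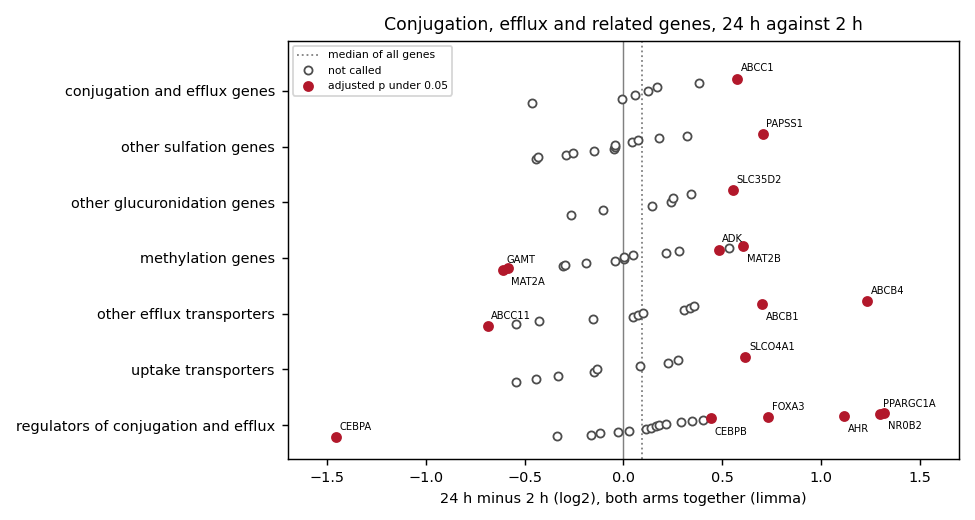
Difference of 24 h minus 2 h on the log2 scale, both arms together (x axis), for the tested genes of each list (y axis). Filled points passed limma's adjusted threshold and are named, open points did not, and the dotted line is the median of all genes (0.09). ABCC1 is the only filled point among the conjugation and efflux genes, and CEBPA lies farthest left, at -1.45.

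The glucuronosyltransferases of the UGT1A cluster, which share their last exons, were covered by 7 probe sets annotated to 5 to 9 genes each, 4 of them above the median, so no single gene can be named from them. They were higher with quercetin in 5 of 7 at 2 and 12 h, in 4 at 4 h and in 1 at 24 h. Of all genes tested, 41.9%, 45.7%, 59.3% and 33.8% were higher at 2, 4, 12 and 24 h, so the share was lowest at 24 h there too. The 1 at 24 h was the dimmest of the 7, with a mean of 5.93. The median difference of the 7 was 0.19, 0.07, 0.32 and -0.10. The brightest stood at 9.01, 9.23, 8.75 and 9.10 in control and at 9.24, 9.09, 9.05 and 8.82 with quercetin, higher at 2 and 12 h and lower at 4 and 24 h. At 24 h the 4 above the median had differences of -0.27, -0.72, -0.05 and -0.19, in order of level.

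Likeness over the 8 arrays was described for the 3 tested genes with the widest range. ABCC2 was most like RBM24, IGFLR1 and ZFAND5 (Pearson r 0.99, 0.98 and 0.96). SULT2A1 was most like STEAP1, NDUFB3 and NDUFA1 (0.98 each) and ABCC3 like BCL2L13, AGTRAP and COMMD4 (0.99, 0.98 and 0.98). With 8 arrays and 13298 genes, values of this size are the top of a long list, and all arrays share the time course. Within the group, ABCC1 and ABCC3 ran against each other (r = -0.81) and UGDH was most like SULT1A1 (0.77).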

How the data were processed

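The values are log2 intensities as deposited by the authors, 54675 probe sets on 8 arrays. The submitters' processing notes name RMA, a method that corrects background, normalizes by quantiles and summarises probes. No source used here gives its version or settings. The deposited arrays still differed in median (7.36 to 7.48) and SD (1.74 to 1.95), so their distributions are not identical as they stand. How the quantile step was applied to them was not tested. The columns were matched to samples by accession. Of the probe sets, 41091 had 1 gene symbol, 1801 had several, 11721 were not listed and 62 were controls. A gene was represented by its brightest probe set, and genes with a mean above 7.43 were tested.

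Fits used limma 3.58.1 in R 4.3.3 (lmFit, eBayes with trend, Benjamini-Hochberg over all 13298 genes, threshold 0.05), with time as a block and treatment added. A second model added the late against early quercetin difference. The code was tested on simulated data first. The number of arrays limits the precision.

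The genes, lists and rules were chosen with earlier results of these data known. Named genes are the 9 of the group, the called members of each list (at most 4 per list and comparison), the largest quercetin mean of 1 sign in each direction per list, and the 3 nearest genes by correlation. Alternatives covered the filter, probe set choice, scaling, moderation, array weights, the time block and leaving out each time pair.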

Additional observations from a re-analysis of the deposited data

How the results depend on the processing

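Over 294 recomputed differences of the 7 tested genes, 252 kept their sign and side of the threshold, 10 gained a call, 3 lost one and 29 turned in sign. In many of the 294 the sign could not turn. The filter, the moderation and the time block leave the difference itself unchanged. Leaving out the 4 h or the 12 h pair does the same for 24 h against 2 h. The 252 is therefore not a count of separate checks. The number of genes called for quercetin was 2 with gene-specific probe sets, 1 with array weights and 0 to 1 when a time pair was left out, and none of them was in the group. For 24 h against 2 h it was 1525 with the mean of probe sets, 4597 of 27300 with every probe set on its own and 5899 for 24 h against 4 h, against 2831. For late against early it was 15 with no filter, 1 with the mean of probe sets, 30 after median centring, 0 after quantile normalization (624 genes at an unadjusted threshold of 0.05), cyclic loess (621) and eBayes without trend (477), 141 with every probe set, and 8 to 162 when a time pair was left out, against 49. The quercetin mean turned for ABCC1 with the mean of probe sets (0.11), quantile normalization (0.048) and cyclic loess (0.048), with -0.066 to 0.043 over the omitted pairs, and with gene-specific probe sets for SULT1A1 (-0.0039) and ABCC3 (-0.021). For 24 h against 2 h the sign turned after quantile normalization and cyclic loess for SULT1A1 (-0.12 and -0.16), SULT2A1 (-0.052 and -0.055) and UGDH (-0.057 and -0.083), with gene-specific probe sets for SULT1A1 (-0.099), and for ABCG2 after median centring (0.054) and against 4 h (0.11). Late minus early turned for SULT1A1 with gene-specific probe sets (-0.23), for UGDH after quantile normalization (-0.057) and cyclic loess (-0.064), and for ABCC3 with the mean of probe sets (-0.085), quantile normalization (-0.067) and cyclic loess (-0.036). Over the omitted pairs it ranged from -0.10 to 0.37 for SULT1A1, -0.071 to 0.21 for UGDH, -0.15 to 0.19 for ABCC3 and -0.10 to 0.44 for ABCG2. The causes were not tested. ABCC1 lost its call for 24 h against 2 h with the mean of probe sets too (0.47, adjusted p = 0.079), and over its 13 alternatives the adjusted p ranged from 0.00059 to 0.14. ABCC3 gained a call in 7 of 13 (0.00035 to 0.11). UGDH was positive in all 15 alternatives of the quercetin comparison (0.22 to 0.32) and called in none (adjusted p 0.44 to above 0.99).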
